A study of Bos taurus with 4 samples.

Results

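Beta-oxidation is the pathway that cuts fatty acids into acetyl-CoA for energy. Described here are 33 genes of this pathway, all found by symbol among the 31021 genes of the deposited count table. They were chosen by function: the carnitine system that carries fatty acids into mitochondria, the enzymes of the mitochondrial and peroxisomal spirals, the flavoproteins that take up their electrons, and PDK4, a kinase that turns down the use of pyruvate. The choice was made with earlier results of these data known. The RNA came from primary epithelial cells that were grown out of the mammary tissue of Chinese Holstein cows and freed by enzyme digestion, with 1 RNA-seq library titled HH and 1 titled LL. The series sets cows whose milk fat was high, at 4.85%, beside cows whose milk fat was low, at 3.41%. The codes HH and LL are not spelled out, and the phenotype label does not separate them: it calls both RNA-seq libraries high and both small RNA libraries low. Directions are therefore those of the library titled HH over the one titled LL. The sources used here do not give the number of cows behind a library, their age or their stage of lactation. All cows are described as kept under similar conditions on corn and hay.

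As background, long-chain fatty acids enter mitochondria as carnitine esters. CPT1 makes the ester at the outer membrane and is blocked by malonyl-CoA, the first product of fatty acid synthesis, so that a cell that makes fat for milk has a known brake on burning it. Inside, each turn of the spiral has 4 steps: a dehydrogenase, a hydratase, a second dehydrogenase and a thiolase. Peroxisomes run a similar spiral on very long and branched chains and pass the shortened chains on to mitochondria.

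Most of these genes had somewhat lower scaled counts in the HH library, and none differed by as much as 2-fold beyond counting error. On the log2 scale the ratio, HH over LL, was below 0 for 28 of the 33 genes and above 0 for 5. Over the 16249 genes of the table with at least 20 summed counts, 8283 were below 0 and 7966 above. The whole interval lay below 0 for 20 of the members with at least 100 counts (62.5%), against 27.9% of all such genes. CPT1A and the peroxisomal thiolase gene ACAA1 were the furthest below 0 among genes with at least 100 counts, at −0.58 and −0.66. The exceptions above 0 were ECI1, HADHA, HADHB, SLC22A5 and PDK4. The median of the 33 was −0.23, with quartiles at −0.36 and −0.08, beside a median of −0.01 with quartiles at −0.26 and 0.28 over the 16249 genes with at least 20 summed counts.

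The libraries held 17369144 counts for HH and 16318951 for LL. Levels are counts per 1000000 counts (CPM) after scaling by the trimmed mean of M-values (TMM), a factor fitted on the whole table. Each ratio carries a 95% interval, computed exactly (Clopper-Pearson) from how its reads divide between the libraries. With 1 library per code there is no replicate check and no test: each value compares those libraries, not the conditions, and the intervals cover counting error of reads only. Lengths of the counted transcripts were not used here, so levels are not ranked between genes. Bulk RNA cannot tell fewer cells of a type from less RNA per cell.

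Of the 33 genes, 32 had at least 100 summed counts; CPT1B did not. None of the 32 had its whole interval past 2-fold in either direction. Over all 12804 genes with at least 100 summed counts, 1.87% were past 2-fold higher in HH and 1.0% lower in HH. Past 0.32 on the log2 scale, 0 members were called higher in HH, where the share of all genes was 9.81%, and 2 lower in HH (CPT1A and ACAA1), where it was 7.08%. That is 6.25% of the members. With the point ratio in place of the whole interval, 9 members (28.1%) lay below −0.32, where the share of all genes was 17.5%. The whole interval lay below 0 for 20 members (62.5%), against 27.9% of all genes, and above 0 for 5 members (15.6%), against 27.2%. This last rule depends on depth. Among the 11037 genes with 181 to 11498 summed counts, the range of the members without PDK4, the shares were 28.6% below and 27.6% above 0. Depth was not matched within that range, so these shares do not remove its effect. The members thus had mostly small ratios on the lower side.

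**Figure D1:**
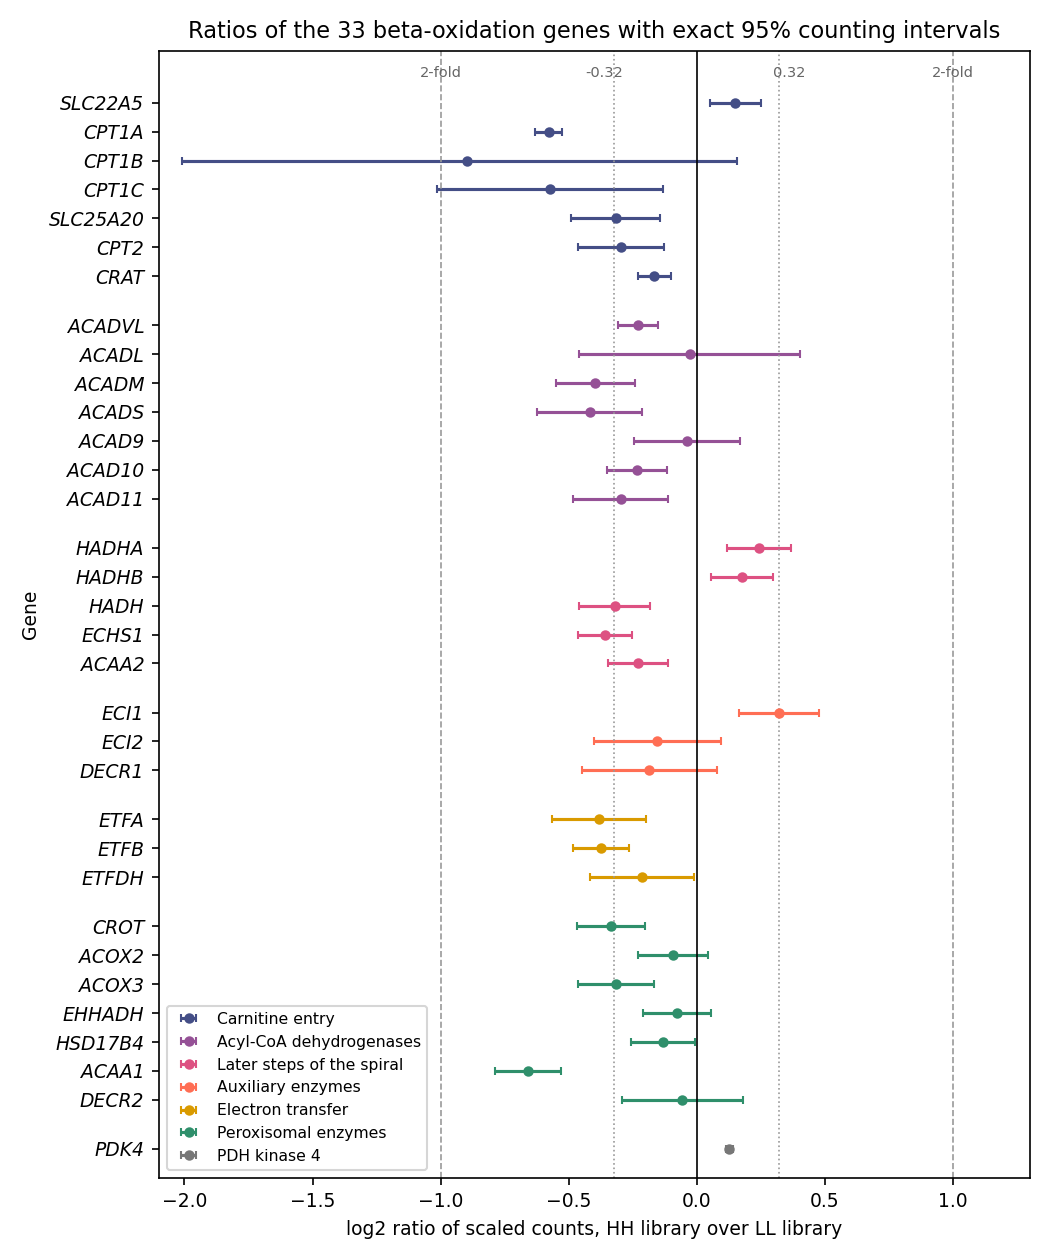
Log2 ratio of the HH over the LL library for each of the 33 genes, grouped by role, with exact 95% counting intervals; dashed lines mark 2-fold and dotted lines a log2 ratio of 0.32 in size. The points of 28 genes lie left of 0, and the intervals of CPT1A and ACAA1 lie wholly below −0.32.

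The carnitine system lay below 0 except for the uptake step. SLC22A5, the plasma membrane carrier that brings carnitine into the cell, had 1759 counts in HH and 1440 in LL, or 99.6 and 89.7 CPM. Its log2 ratio was 0.15, with an interval of 0.05 to 0.25. CPT1A, the liver-type carnitine palmitoyltransferase and the rate-controlling step of entry, had 4877 counts in HH and 6621 in LL, or 276 and 412 CPM. The scaled count in HH was 0.670 times that in LL, a log2 ratio of −0.58 (−0.63 to −0.52). Its interval is narrow and lies well clear of 0.

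The other CPT1 isoforms were scarce. CPT1C, an isoform known from the brain, had 77 counts in HH and 104 in LL, a ratio of −0.57 (−1.02 to −0.13). CPT1B, the muscle isoform, had 13 and 22 counts, and its ratio of −0.90 had an interval of −2.01 to 0.16 that holds 0. CPT1A made up 98.2% of the CPT1 counts in HH (97.8 to 98.5%) and 98.1% in LL (97.8 to 98.4%), without adjustment for transcript length. The isoform shares were alike within counting error, while the CPT1A level was not.

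Past CPT1, the chain crosses the inner membrane. SLC25A20, the carnitine-acylcarnitine translocase, had 507 counts in HH and 574 in LL, or 28.7 and 35.8 CPM, a ratio of −0.32 (−0.49 to −0.14). CPT2, which turns the carnitine ester back into acyl-CoA, had 546 and 609 counts, a ratio of −0.30 (−0.46 to −0.13). CRAT, which moves acetyl groups between CoA and carnitine, had 3751 counts in HH and 3824 in LL, a ratio of −0.17 (−0.23 to −0.10). Summed, the 7 carnitine genes had 653 CPM in HH and 822 CPM in LL, a ratio of −0.33 (−0.37 to −0.30). CPT1A held 42.3% of that sum in HH and 50.2% in LL; without it the ratio was −0.12 (−0.17 to −0.07).

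**Figure D2:**
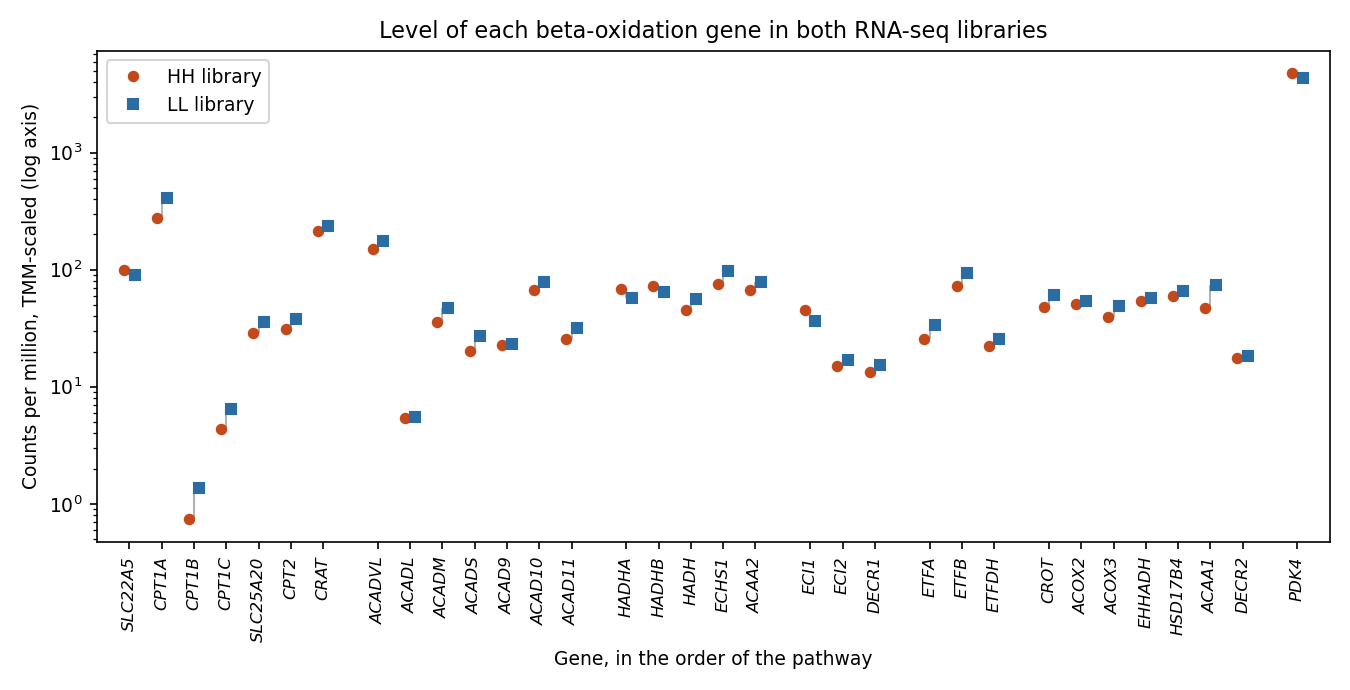
TMM-scaled CPM (log axis) of each gene in the HH library (circles) and the LL library (squares), in pathway order, not adjusted for transcript length. The LL point is the higher one for 28 genes, and PDK4 stands at 4792 CPM in HH and 4386 CPM in LL.

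All 7 acyl-CoA dehydrogenase genes, whose enzymes open the mitochondrial spiral or are related to those that do, had ratios below 0, from −0.42 to −0.03. For 5 of them the whole interval was below 0. ACADVL, for very long chains, had 2645 counts in HH and 2818 in LL, or 149.8 and 176 CPM, a ratio of −0.23 (−0.31 to −0.15). ACADM, for medium chains, had 632 and 756 counts, or 35.8 and 47.1 CPM, a ratio of −0.40 (−0.55 to −0.24). ACADS, for short chains, had 358 counts in HH and 435 in LL, or 20.3 and 27.1 CPM, a ratio of −0.42 (−0.62 to −0.21). The intervals of the very long, medium and short chain enzymes overlap, and differences between them were not tested.

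ACADL, for long chains, was scarce, with 96 counts in HH and 89 in LL, and its ratio of −0.03 had an interval of −0.46 to 0.40. ACAD9, known mainly as an assembly factor of respiratory complex I, had 401 and 374 counts, a ratio of −0.04 (−0.24 to 0.17). ACAD10, a member of the family with a less settled role, had 1183 counts in HH and 1264 in LL, a ratio of −0.23 (−0.35 to −0.12). Its relative ACAD11 had 454 and 507 counts, a ratio of −0.30 (−0.48 to −0.11). The interval of ACADL is wide enough to hold the values of all the others in the family.

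The later steps of the spiral split by enzyme. HADHA and HADHB encode the subunits of the trifunctional protein, a complex at the inner membrane that runs the last 3 steps on long chains. HADHA had 1202 counts in HH and 924 in LL, or 68.1 and 57.6 CPM, a ratio of 0.24 (0.12 to 0.37). HADHB had 1284 counts in HH and 1033 in LL, or 72.7 and 64.4 CPM, a ratio of 0.18 (0.06 to 0.30). Their genes are direct neighbours in the RefSeq table of assembly ARS-UCD2.0. HADHA took 48.4% of the counts of the pair in HH (46.4 to 50.3%) and 47.2% in LL (44.98 to 49.5%), so the balance of the subunits was the same within counting error.

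The soluble enzymes that run the same steps on shorter chains went the other way. ECHS1, the short-chain enoyl-CoA hydratase, had 1346 counts in HH and 1569 in LL, or 76.2 and 97.7 CPM, a ratio of −0.36 (−0.46 to −0.25). HADH, the 3-hydroxyacyl-CoA dehydrogenase of shorter chains, had 803 and 911 counts, or 45.5 and 56.8 CPM, a ratio of −0.32 (−0.46 to −0.18). ACAA2, the mitochondrial thiolase, had 1174 counts in HH and 1251 in LL, a ratio of −0.23 (−0.35 to −0.11). The intervals of these 3 genes lie wholly below 0 and do not overlap those of HADHA and HADHB. The 5 genes together had 329 CPM in HH and 354 CPM in LL, a ratio of −0.11 (−0.16 to −0.05). Without ECHS1, which had the most counts of the 5, the ratio was −0.02 and its interval of −0.08 to 0.04 holds 0.

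Unsaturated chains need auxiliary enzymes that shift or remove double bonds. ECI1, the main mitochondrial enoyl-CoA isomerase, had 801 counts in HH and 583 in LL, or 45.4 and 36.3 CPM. Its ratio of 0.32 (0.17 to 0.48) was the highest of the 33 genes. ECI2, an isomerase of mitochondria and peroxisomes, had 267 and 270 counts, a ratio of −0.15 (−0.40 to 0.10). DECR1, the mitochondrial 2,4-dienoyl-CoA reductase, had 238 counts in HH and 246 in LL, a ratio of −0.19 (−0.45 to 0.08). Only the ECI1 interval is clear of 0 here, and the sum of the 3 genes turned with it: its ratio was 0.11 (−0.01 to 0.23), or −0.17 (−0.35 to 0.01) without ECI1.

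The electron transfer flavoprotein, encoded by ETFA and ETFB, collects electrons from the acyl-CoA dehydrogenases. The enzyme encoded by ETFDH hands them to ubiquinone. All 3 genes were lower in HH, with every interval below 0. ETFA, the alpha subunit, had 453 counts in HH and 537 in LL, or 25.7 and 33.5 CPM, a ratio of −0.38 (−0.57 to −0.20). ETFB, the beta subunit, had 1284 and 1512 counts, or 72.7 and 94.2 CPM, a ratio of −0.37 (−0.48 to −0.27). ETFDH, the oxidoreductase that passes the electrons on, had 390 counts in HH and 411 in LL, a ratio of −0.21 (−0.42 to −0.01) whose upper bound crossed 0 under total-count scaling and under DESeq2 size factors. ETFA took 26.1% of the counts of the 2 subunits in HH (24.03 to 28.2%) and 26.2% in LL (24.3 to 28.2%), again the same balance within counting error. The sum of the 3 genes had 120 CPM in HH and 153 CPM in LL, a ratio of −0.35 (−0.43 to −0.26).

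All 7 peroxisomal genes had ratios below 0, and 4 of them had intervals clear of it. ACAA1, the thiolase that closes the peroxisomal spiral, had 829 counts in HH and 1189 in LL, or 46.9 and 74.1 CPM. The scaled count in HH was 0.634 times that in LL, a ratio of −0.66 (−0.79 to −0.53). CROT, which loads the shortened chains onto carnitine for export, had 856 counts in HH and 981 in LL, or 48.5 and 61.1 CPM, a ratio of −0.33 (−0.47 to −0.20). ACAA1 stood below all other peroxisomal members with no overlap of intervals.

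ACOX3 and ACOX2, acyl-CoA oxidases that act on branched chains, both had ratios below 0. ACOX3 had 698 counts in HH and 789 in LL, a ratio of −0.31 (−0.46 to −0.17). ACOX2 had 903 and 875 counts, a ratio of −0.09 (−0.23 to 0.04). These intervals overlap, and the difference between the oxidases was not tested.

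The peroxisome holds separate multifunctional enzymes for the middle steps, and both were near 0. HSD17B4, the D-type enzyme, had 1058 counts in HH and 1053 in LL, or 59.9 and 65.6 CPM. Its ratio of −0.13 (−0.26 to −0.01) had an upper bound that crossed 0 under total-count scaling and under DESeq2 size factors. EHHADH, the L-type enzyme, had 953 and 915 counts, a ratio of −0.08 (−0.21 to 0.05). DECR2, the peroxisomal dienoyl-CoA reductase, had 309 counts in HH and 292 in LL, a ratio of −0.06 (−0.29 to 0.18). The 7 genes summed had 317 CPM in HH and 380 CPM in LL, a ratio of −0.26 (−0.31 to −0.21).

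PDK4 held most of the counts of the 33 genes, without adjustment for length. This kinase phosphorylates and inactivates pyruvate dehydrogenase and is known as a gene that fatty acids and fasting induce. It had 84606 counts in HH and 70403 in LL, or 4792 and 4386 CPM, which is 0.487% and 0.431% of all counts. The ratio was 0.13 (0.11 to 0.14), small in size with a very narrow counting interval. PDK4 took 98.0% of the counts of the PDK1 to PDK4 genes in HH (97.9 to 98.1%) and 97.9% in LL (97.8 to 98.0%), without adjustment for length. It was 72.5% of the member counts in HH and 66.9% in LL, so the sum over all 33 genes was flat at 0.01 (0.00 to 0.03). Without PDK4 the other 32 genes summed to 1821 CPM in HH and 2167 CPM in LL, a ratio of −0.25 (−0.27 to −0.23).

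**Figure D3:**
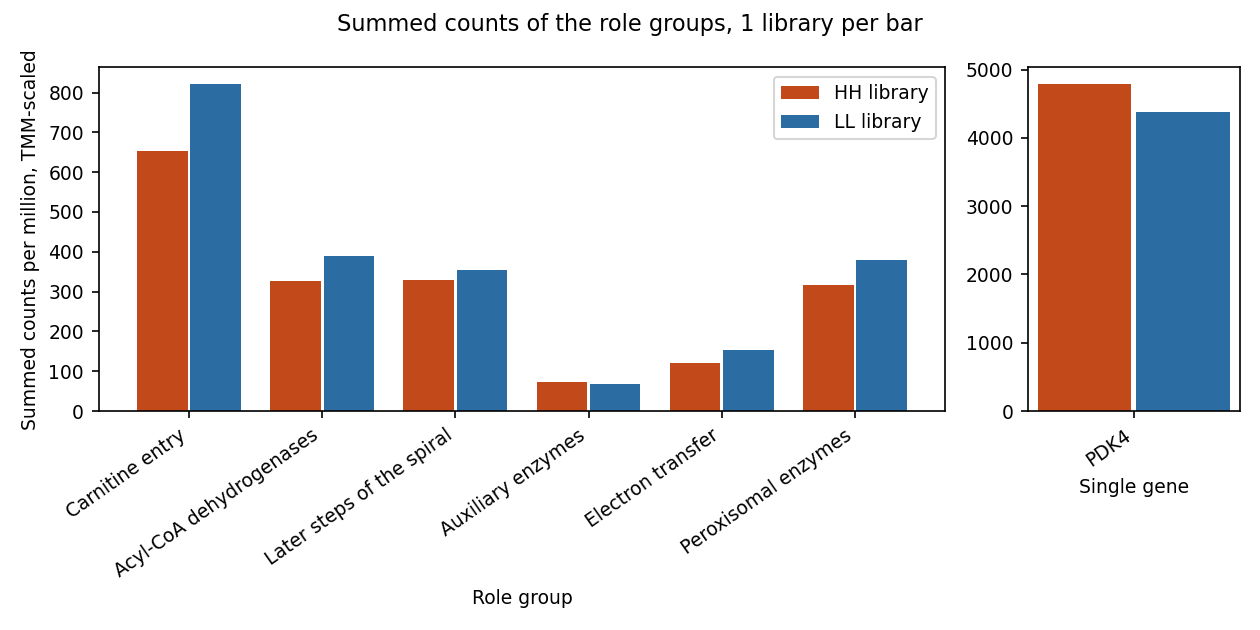
Summed TMM-scaled CPM of each role group in the HH library (left bar of each pair) and the LL library (right bar), with PDK4 on its own scale and no error bars, since each bar is 1 library. The carnitine genes show the widest gap in CPM among the groups of several genes, 653 CPM in HH and 822 CPM in LL. CPT1A held 42.3% and 50.2% of these sums. As a log2 ratio the gap was −0.33, beside −0.35 for electron transfer. PDK4 and the auxiliary enzymes are the groups whose HH bar is the taller one.

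Neighbouring pathways were listed to place these values. Counts of intervals below are to be read beside the shares of all genes with at least 100 counts. Of those genes, 7.08% had intervals below −0.32 and 9.81% above 0.32. Intervals lay below 0 for 27.9% of them and above 0 for 27.2%. Regulators of the pathway had a median ratio of −0.14 over 13 genes. PPARA, the nuclear receptor that turns on fatty acid oxidation genes in the liver, had 248 counts in HH and 324 in LL, a ratio of −0.52 (−0.77 to −0.28). LPIN1, a phosphatidate phosphatase that also acts as a PPARA coactivator in mouse liver, was at −0.52 (−0.59 to −0.45). LPIN1 and PPARD, which was picked out after its values were seen and was at −0.51 (−0.67 to −0.35), were the 2 of 12 with at least 100 counts whose interval lay below −0.32, and 0 lay above 0.32. PPARGC1A, the coactivator PGC1-alpha, was scarce at 29 and 41 counts and was likewise picked out after its values were seen.

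Genes that set malonyl-CoA and its control by the kinase AMPK had a median of −0.32 over 8 genes. PRKAA1, an AMPK catalytic subunit, was at −0.44 (−0.59 to −0.29). MLYCD, which destroys malonyl-CoA, was at −0.35 (−0.58 to −0.13). None of the 7 with at least 100 counts had an interval past 0.32 in either direction, and 4 had intervals below 0.

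Other peroxisomal genes did not lean to 1 side. Of 16 with at least 100 counts, 5 (31%) had intervals above 0 and 4 (25%) below 0, near the shares of all genes. The median was −0.10 over 16 genes. AMACR, a racemase of branched chains, was at 0.66 (0.29 to 1.02) and PECR, a trans-2-enoyl-CoA reductase, at 0.54 (0.27 to 0.80).

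Enzymes that make or use ketone bodies, a product of acetyl-CoA from this pathway, had a median of 0.00 over 6 genes. OXCT1, which activates ketone bodies for use, was at −0.55 (−0.68 to −0.42), and its interval lay below −0.32.

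Breakdown of branched-chain amino acids and propionate shares the electron transfer flavoprotein with beta-oxidation. Its list had a median of −0.05 over 12 genes, with 5 intervals below 0 and none above. Its sum had a ratio of −0.23 (−0.28 to −0.19), beside −0.25 for the 32 oxidation genes without PDK4. The medians were further apart, at −0.05 and −0.23. IVD, named below, had the most counts of the list, 16.2% of the sum in HH and 21.8% in LL. ACADSB, the short/branched-chain acyl-CoA dehydrogenase, had 235 counts in HH and 452 in LL, a ratio of −1.08 (−1.31 to −0.85). IVD, the isovaleryl-CoA dehydrogenase, was at −0.66 (−0.77 to −0.56). Among acyl-CoA thioesterases, which release free fatty acids from CoA, the median was 0.03 over 7 genes, with THEM4 at −1.12 (−1.40 to −0.84) and ACOT9 at 0.50 (0.31 to 0.69).

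The medians of the respiratory chain and citric acid cycle lists lay nearer 0 than that of the 33 genes. Nuclear genes of oxidative phosphorylation had a median of −0.08 over 88 genes. Of the 85 with at least 100 counts, 23 (27.1%) had intervals below 0 and 14 (16.5%) above. The shares of all genes were 27.9% and 27.2%. The named ones were COX7A1, a subunit of cytochrome oxidase, at 0.80 (0.28 to 1.34) and NDUFC1, a subunit of complex I, at −0.58 with an interval that reaches 0.00. Citric acid cycle genes had a median of −0.09 over 16, with 7 intervals below 0 and 6 above; IDH3A was at 0.55 and SDHC at −0.54. The sum of the cycle genes was 1549 CPM in HH and 1546 CPM in LL.

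Genes that feed or control pyruvate dehydrogenase, PDK4 left out, had a median of 0.07 over 11. PDP1, the phosphatase that reverses the action of the PDK kinases, was at 0.61 (0.47 to 0.75), and PDHX, a structural subunit of the complex, at 0.39 (0.15 to 0.63). De novo fatty acid synthesis genes had a median of 0.14 over 10, and their sum was 3401 CPM in HH and 2422 CPM in LL, a ratio of 0.49 (0.47 to 0.51). SCD, the stearoyl-CoA desaturase, was at 1.05 and ELOVL6, a fatty acid elongase, at 0.72. Without SCD, left out after its values were seen, the sum was 2197 CPM in HH and 1839 CPM in LL, a ratio of 0.26 (0.23 to 0.28), of which FASN was 78.1% in HH and 72.9% in LL. The list was not uniform: of 9 genes with at least 100 counts, 5 had intervals above 0 and 3 below. The 3 below, picked out after their values were seen, were ACACA, which makes malonyl-CoA, at −0.20 (−0.27 to −0.13), ACSS2, which activates acetate, at −0.11 (−0.20 to −0.02), and OXSM, of mitochondrial fatty acid synthesis, at −0.65 (−0.90 to −0.39).

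**Figure D4:**
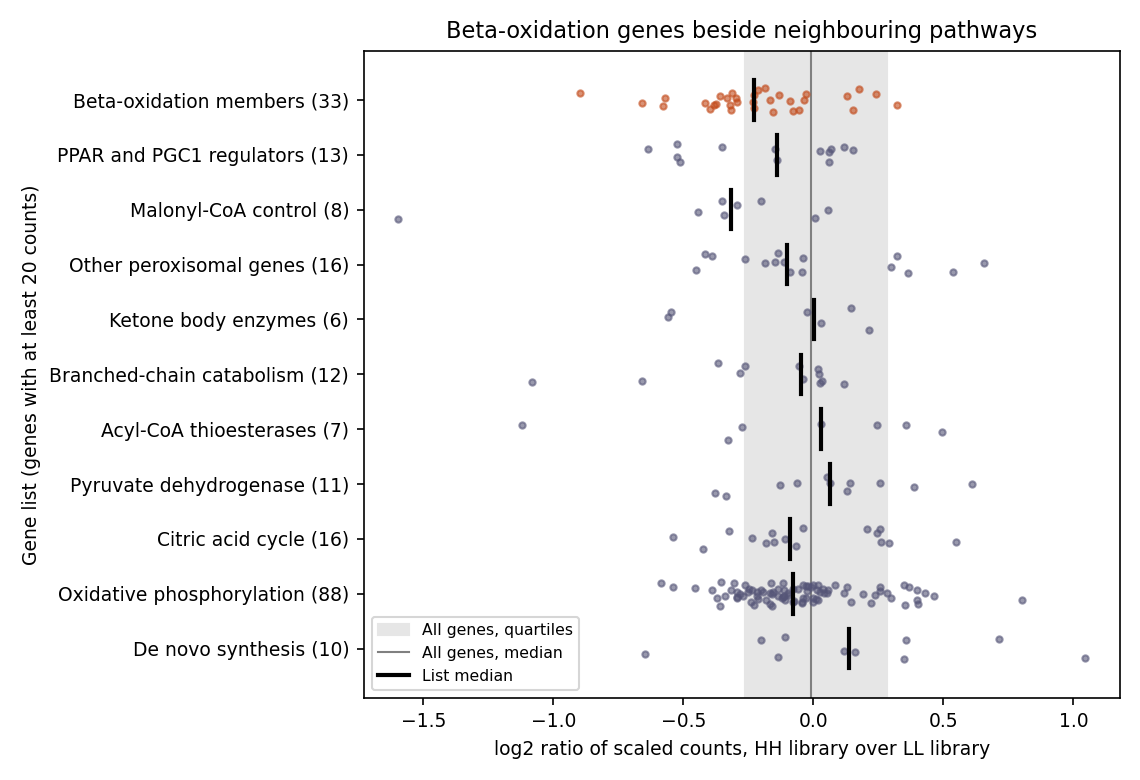
Log2 ratio of the HH over the LL library for each gene with at least 20 summed counts (points) and the median (bar) of the 33 genes and of 10 neighbouring lists; the grey band spans the quartiles of all genes, −0.26 to 0.28. The beta-oxidation median of −0.23 lies inside the band near its lower edge, and the medians for oxidative phosphorylation (−0.08) and the citric acid cycle (−0.09) lie nearer 0.

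Markers were checked for the labelled cell type and for other cells that use these genes. The luminal markers KRT8, KRT18, KRT19, EPCAM, ELF5, CSN2 and CSN3 were all detected, and 6 of the 7 had intervals above 0, with a list median of 0.26. KRT18 was at 1.74, KRT19 at 0.84 and KRT8 at 0.55, while CSN2 was at −0.59. Their sum, 72.8% CSN3 in HH and 67.7% in LL, was 72742 CPM in HH and 75892 CPM in LL. The basal list summed to 2048 CPM in HH and 854 CPM in LL, and the fibroblast list to 645 and 521 CPM. DCN, at 0.06, was 41.8% of the fibroblast sum in HH and 49.7% in LL. The fibroblast list median was 0.70. Of its 6 genes, 4 had intervals above 0.32, while COL3A1 was at −0.28 (−0.40 to −0.16). The endothelial list had 706 CPM in HH and 870 CPM in LL, led by VWF. Of its 5 genes, 4 were below 0, 3 of them with the whole interval below 0. TIE1 went the other way, at 0.43 (0.27 to 0.59). The adipocyte list, with 5 of 6 genes in the table, had 197 CPM in HH and 305 CPM in LL. FABP4, a fatty acid binding protein also made by endothelial cells, was 96.8% of that sum in HH and 98.0% in LL, while the defining gene ADIPOQ had 21 and 14 counts and LEP 1 and 0. The muscle list had 18.3 CPM in HH and 14.6 CPM in LL, led by TNNT2 with 228 and 133 counts; ACTA1 had 76 and 82, CKM 16 and 16, and MB and TNNI3 had 0 in both. The hepatocyte list had 43.2 CPM in HH and 30.8 CPM in LL, led by TTR with 726 and 384 counts; APOA1 had 15 and 72, ALB 2 in each and APOA2 0 in both. The leukocyte list had 263 CPM in HH and 265 CPM in LL, with members on both sides of 0: CD3E was at 1.02 (0.77 to 1.27) and PTPRC at 0.46 (0.30 to 0.61), and CD79A at −1.45 (−2.18 to −0.76). The part of these cell markers in the ratios above was not tested.

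Reads of overlapping genes may be mixed in some members. In the RefSeq table SLC25A20, CRAT, ACADVL, ACAD9, ACAD10, ACAD11, ECHS1, ECI2 and HSD17B4 overlap another gene, 9 of the 33. The sources used here do not say whether the counting used strand, so reads from the stretches shared with a partner cannot be told apart here. How much of each gene is shared was not measured. CPT1A, ACAA1, HADHA, HADHB, ECI1 and PDK4 overlap none. No other row of the count table has a member as its human or mouse match.

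The small RNA libraries bear on 3 members. In human cells miR-33a, which is encoded inside the cholesterol regulator gene SREBF2, is known to target the transcripts of CPT1A, CROT and HADHB. The reads of precursor bta-mir-33a numbered 291 in HH and 17 in LL, or 41.1 and 1.88 per 1000000 miRNA reads, a log2 ratio of 4.45 (3.75 to 5.25) on total miRNA reads. Its 3 most frequent tags are shown because all begin with the same seed, bases 2 to 8, given in capitals.
Tag of 21 nt, 171 reads in HH and 1 in LL: gTGCATTGtagttgcattgca
Tag of 18 nt, 57 reads in HH and 9 in LL: gTGCATTGtagttgcatt
Tag of 20 nt, 57 reads in HH and 5 in LL: gTGCATTGtagttgcattgc
Tags with this seed made up 288 of the 291 reads in HH and 16 of the 17 in LL. Beside these values CPT1A was at −0.58 and CROT at −0.33, while HADHB was at 0.18. The 3 genes thus did not share a direction, and the part of miR-33a in their ratios was not tested.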

How the data were processed

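The authors deposited unnormalised read counts by gene in 1 table with a column for each RNA-seq library, and read counts by miRNA sequence tag in 1 list for each small RNA library. Per the labels' protocols, the library kit was Ion Total RNA-Seq, on RNA over 18 nucleotides. The sources used here do not name an aligner, counter, genome build or annotation. Groups came from the title codes, 1 library each.

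TMM factors were fitted on all 31021 genes (edgeR 4.0.16, R 4.3.3). Ratios are HH over LL, with exact 95% intervals (scipy 1.17.1). Calls used at least 100 summed counts, medians at least 20. Total counts, DESeq2 1.42.0 size factors and the upper quartile were tried as other scalings. Intervals were tried on simulated counts that held counting error only, the error they are built for. That check does not cover spread between cultures or cows. RefSeq (ARS-UCD2.0) matched all 33 symbols and gave neighbours only. A comparison of levels per coding length was planned but not made, since protein lengths were not used here.

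The members and lists were chosen with earlier results of these data known. Named genes were the 12 members with the largest absolute ratios and the one with the most counts in each role. The 2 with the largest absolute ratios in each neighbouring list were named too. The other members are given in short. Results on a few genes of the neighbouring lists are not reported here.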

Additional observations from a re-analysis of the deposited data

How the results depend on the processing

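Each code has 1 library, so no biological spread can be given, and counting error limits the scarce genes most (CPT1B, CPT1C and ACADL). No paired analysis was possible because each group holds 1 library. DESeq2 size factors, total counts and the upper quartile shifted every log2 ratio by 0.02, 0.05 and −0.02, and no gene with an interval clear of 0 changed sign. The member median lay between −0.25 and −0.18 under the settings tried. The 20 members with intervals below 0 became 18 under DESeq2 factors or total counts and 19 with a minimum of 500 counts; the 5 above 0 stayed 5 in number. The count below −0.32 was 9 (28.1%) in place of 2 when the point ratio decided, where 17.5% of all genes passed. The PDK4 ratio was 0.14 (DESeq2), 0.18 (total) and 0.11 (upper quartile), outside its narrow interval each time; the other 32 members stayed inside theirs. The carnitine sum was −0.28 under total counts. Without the gene with the most counts, the sums were −0.12 for carnitine entry, −0.022 for the later steps and −0.17 for the auxiliary enzymes.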
